A study of Homo sapiens with 10 samples.

Results

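The enzymes that dispose of ammonia in the liver were followed through the differentiation of H1 human embryonic stem cells (hESCs) towards hepatocyte-like cells. A list of 8 genes was looked up by symbol in the deposited table, and 6 of them were found among its 12125 genes. These were CPS1, ASS1, ASL, ARG2, GLUD1 and GLUL. ARG1 and OTC have no row in the table and are not analysed here, so 2 reactions of the cycle in liver, those of ornithine transcarbamylase and of the liver arginase, have no value. H1 is an established hESC line, grown here as a monolayer on Matrigel. Each of the 10 sampled days, from day 0 to day 21, gave 1 RNA library, and there was no replicate. Day 0 cells, kept in mTeSR1 medium, had received none of the factors of the protocol. The day 1, 2 and 3 cells were in Activin A at 100 ng per ml. The day 5 and 7 cells were in FGF4 at 30 ng per ml and BMP2 at 20 ng per ml, and the day 9 and 11 cells in HGF and KGF at 20 ng per ml. The day 21 cells were in Oncostatin M (OSM) at 20 ng per ml. By the methods, Activin A was given in RPMI/B27 without insulin, and the FGF4 and BMP2 and the HGF and KGF steps had insulin. OSM was given in a hepatocyte culture medium with supplements but no EGF. Where factor and base medium changed together, their effects cannot be told apart. The day 13 library is labelled OSM, whereas steps of 3, 4, 6 and 8 days place day 13 at the close of treatment with HGF and KGF.

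In the liver, ammonia is turned into urea mainly by hepatocytes near the portal vein, through a cycle that starts in the mitochondrion and ends in the cytosol. CPS1 makes carbamoyl phosphate from ammonia, OTC joins it to ornithine, ASS1 and ASL turn the citrulline that results into arginine, and arginase splits arginine into urea and ornithine. GLUD1 sets ammonia free from glutamate. GLUL binds ammonia that has escaped the cycle to glutamate, and in the adult liver it is found in hepatocytes around the central vein.

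The values are whole numbers on a scale that the authors normalized for GC content, and they are not read counts. Their median was 81 or 82 and their maximum 18734 in every library, and the totals ran from 2330948 to 2362740, so they carry no depth. From 700 up, the values fall into 51 levels, separated by gaps of more than 0.5%, and each level occurs in every library and holds 9 or 10 genes in each. A value thus gives the place of a gene in an order shared by all libraries, and a ratio of values is a distance on that scale and not a ratio of RNA amounts. Values are not stated to be per length of transcript, so levels are compared within a gene and not between genes. Changes are differences of log2(value + 1), which understate the change of low genes. Because each day has 1 library, no difference has a p-value. The spread was gauged from the day 9 and day 11 libraries, both in HGF and KGF. Of 2780 genes with a mean value from 50 to 100, 95% differed by less than 0.76 on the log2 scale between these days, and of 495 genes from 500 to 1000, 95% differed by less than 0.61. All 6 members lay within this spread between days 9 and 11. It is the smallest spread among pairs of libraries in the same medium. For values from 500 to 1000 the corresponding difference was 1.03 between days 1 and 2 and 1.63 between days 5 and 7, and these pairs also hold any change of the cells with time. The labelled course was visible in its markers. Against day 0, all 12 hepatocyte markers found of 14 listed had day 21 values at least 4-fold higher, as 11.9% of all genes tested had. All 7 pluripotency markers had values at least 4-fold lower, as 11.5% of all genes tested had.

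The members lie on 6 chromosomes. In the intervals of the deposited table, whose build is not named in it (the processing notes of the submitters list hg19 beside mm10), CPS1 (ENSG00000021826) spans 211342406 to 211441198 of chromosome 2. ASS1 (ENSG00000130707) spans 133320316 to 133376661 of chromosome 9, and ASL (ENSG00000126522) 65540785 to 65558545 of chromosome 7. ARG2 (ENSG00000081181) spans 68086515 to 68118437 of chromosome 14, all of these on the plus strand. On the minus strand, GLUD1 (ENSG00000148672) spans 88810243 to 88854623 of chromosome 10 and GLUL (ENSG00000135821) 182350839 to 182361341 of chromosome 1.

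The promoters of members whose courses differed most, or ran together, are given next so that they can be set beside the values. They are the 250 bases before the outermost transcription start of RefSeq in GRCh38.p14, read 5′ to 3′ on the strand of the gene. These coordinates are of another build than the intervals above. Capitals mark matches, on either strand, to CCAAT (the CCAAT box) or to TGACGTC (the core of the cyclic AMP response element).
CPS1, chr2:210477435-210477684, plus strand: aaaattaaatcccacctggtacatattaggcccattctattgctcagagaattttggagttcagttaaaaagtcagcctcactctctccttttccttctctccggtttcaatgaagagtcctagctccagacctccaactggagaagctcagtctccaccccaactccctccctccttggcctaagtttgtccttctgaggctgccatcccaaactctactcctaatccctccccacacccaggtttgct
ARG2, chr14:67619670-67619919, plus strand: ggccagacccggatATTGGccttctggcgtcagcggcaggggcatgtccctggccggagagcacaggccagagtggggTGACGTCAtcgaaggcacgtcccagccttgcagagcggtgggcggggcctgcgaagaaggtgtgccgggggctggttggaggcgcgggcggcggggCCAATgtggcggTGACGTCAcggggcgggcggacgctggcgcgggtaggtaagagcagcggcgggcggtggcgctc
GLUD1, chr10:87094844-87095093, minus strand: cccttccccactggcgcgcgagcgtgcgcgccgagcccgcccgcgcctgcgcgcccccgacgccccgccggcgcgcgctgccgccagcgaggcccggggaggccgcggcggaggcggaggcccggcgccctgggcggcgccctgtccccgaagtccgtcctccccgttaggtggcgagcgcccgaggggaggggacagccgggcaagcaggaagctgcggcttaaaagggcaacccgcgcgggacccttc
GLUL, chr1:182391791-182392040, minus strand: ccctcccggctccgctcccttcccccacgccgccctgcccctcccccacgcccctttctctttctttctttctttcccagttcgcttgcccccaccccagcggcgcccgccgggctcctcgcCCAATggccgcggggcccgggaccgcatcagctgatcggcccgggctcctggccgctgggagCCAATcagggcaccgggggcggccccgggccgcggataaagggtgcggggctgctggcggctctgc

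The GC content of the CPS1 window was 48.4%, against 72.4% for ARG2, 74.8% for GLUL, 80.4% for GLUD1 and a median of 58% over 35116 promoter windows of the same length. ARG2 holds the letters TGACGTC at 2 places, starting 172 and 64 bases before the start, each overlapped by the same letters on the other strand. TGACGTC is found in 3.12% of all windows, and among the 10 windows of the members, which cover 3 starts of CPS1 and 2 each of ASS1 and GLUL, only that of ARG2 holds it. CCAAT occurs at 2 places each in the windows of ARG2, ASL and the outer start of GLUL and at 1 place in a window of an inner CPS1 start, against 32% of all windows. The letters CAAAGTC, a core of HNF4 sites, occur in 2.91% of all windows. The C/EBP palindrome TTGCNNAA occurs in 9.05%, the HNF1 letters GTTAAT in 6.23%, the TCF/LEF core CTTTGA in 11.2% and the TATA box TATAAA in 10.7%. None of these is found in a window of the members. The cyclic AMP, CCAAT and TATA letters were chosen after these sequences had been seen. A match or its absence says only whether these letters stand in this window.

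CPS1, the enzyme of the first and rate-limiting step, had 1 high library, the last. Its value was 120 on day 0, it was 96, 72 and 76 in Activin A on days 1 to 3, 86 and 62 on days 5 and 7, 74 and 66 on days 9 and 11, 89 on day 13, and 1217 on day 21. The day 21 library is thus 10.1 times the next highest, that of day 0, while the 9 earlier libraries lie between 62 and 120 and no neighbours in their order differ by more than the spread between days 9 and 11. Day 21 stood 3.76 above day 13 on the log2 scale, a ratio of 13.7. Of the 8786 genes tested in that comparison, 2.28% were at least 4-fold higher, and 0.478% were higher by at least as much as CPS1. The day 21 value rests on 1 library. In bulk RNA, fewer cells of a kind and less RNA in each cell cannot be told apart.

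**Figure D1:**
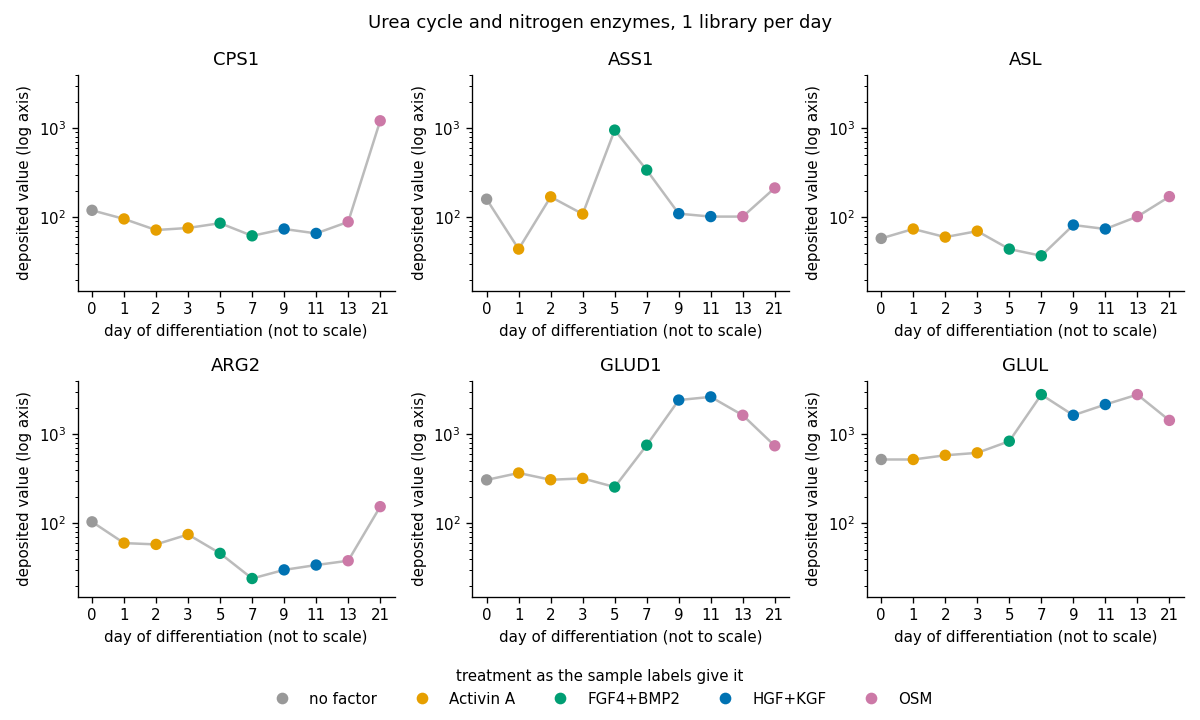
Deposited value (log axis) of each of the 6 genes in the library of each day, coloured by the treatment in the sample labels. CPS1 stands out at day 21 (1217) and ASS1 at day 5 (956), and GLUD1 and GLUL have their higher values from day 7 on.

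ASS1, which joins citrulline to aspartate, had its peak in the middle of the course. Its values were 160 on day 0, 44, 170 and 109 on days 1, 2 and 3, 956 on day 5, 340 on day 7, 110, 102 and 102 on days 9, 11 and 13, and 214 on day 21. Day 5, the first library in FGF4 and BMP2, was 2.81 times the next highest, that of day 7, and 8.77 times day 3. On the log2 scale day 5 exceeded day 3 by 3.12. ASS1 was the 1 member of 6 at least 4-fold higher over these days, against 2.85% of the 8767 genes tested, and 0 were at least 4-fold lower, against 2.24%. At 2-fold it was again 1 member higher, against 7.76% of genes, and 0 lower, against 7.3%. From day 5 to day 9 ASS1 was lower by a ratio of 8.69. The days 1 and 2, which share a medium, differed by 1.93 on the log2 scale, more than the 0.97 that held 95% of the 2629 genes from 100 to 200 in that pair. Annotation in GENCODE release 29 names 11 pseudogenes of ASS1, 5 of GLUD1, 4 of GLUL and 1 of ASL. None has a row in the table, and how reads shared with such copies were assigned is uncertain.

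ASL, which cleaves argininosuccinate into arginine and fumarate, moved least of the members, over a range of 4.62 times. It had values of 58, 74, 60 and 70 on days 0 to 3, 44 and 37 on days 5 and 7, 82, 74 and 102 on days 9, 11 and 13, and 171 on day 21. The lowest libraries were those in FGF4 and BMP2 and the highest that of day 21, which was the only neighbour in the order separated by more than the spread between days 9 and 11 (a log2 gap of 0.74 to day 13, against 0.60). That gap was within the spread between days 1 and 2 at this level (0.97). From day 7 to day 13 the log2 change of ASL was 1.44, and from day 0 to day 21 it was 1.54. The table also lists AC068533.7, whose interval shares 5790 bases with ASL on the same strand and whose values lay between 0 and 30.

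ARG2, the mitochondrial arginase found in many tissues outside the liver, ran down and then up. Its values were 104, 60, 58 and 75 on days 0 to 3, 46 and 24 on days 5 and 7, 30, 34 and 38 on days 9, 11 and 13, and 154 on day 21. The libraries of days 0 and 21 were highest and that of day 7 lowest, with no gap between neighbours in the order beyond the spread between days 9 and 11. From day 3 to day 7 its log2 change was -1.60, and from day 13 to day 21 it was 1.99, just inside the 4-fold line, although the plain ratio of the values was 4.05. VTI1B, a gene on the opposite strand whose interval shares 4646 bases with ARG2, had values from 148 to 198 in all libraries, with 182 at day 13 and 148 at day 21. The kit named in the methods is not stated to keep strand, so reads of the shared bases cannot be assigned to either gene.

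GLUD1 and GLUL, which handle ammonia outside the cycle itself, were highest between days 7 and 13. GLUD1 had values of 308, 368, 309 and 320 on days 0 to 3, 256 on day 5, 756 on day 7, 2430 and 2638 on days 9 and 11, 1640 on day 13 and 744 on day 21. The libraries in HGF and KGF were highest, those up to day 5 were lowest, and those of days 7 and 21 lay between. From day 5 to day 9 the ratio was 9.49, and from day 11 to day 21 the later value was lower by a ratio of 3.55.

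GLUL, glutamine synthetase, was at 522 on days 0 and 1, 582 on day 2, 620 on day 3 and 838 on day 5. It was at 2798 on day 7, 1640 on day 9, 2165 on day 11, 2798 on day 13 and 1436 on day 21. Every library from day 7 on was above every library up to day 5, and the gap between these sets, from 838 to 1436, was the only one in the order beyond the spread between days 9 and 11. The equal values of days 7 and 13 mark the same place in the shared order and do not show equal amounts of RNA. Across the 10 libraries the log2 values of GLUD1 and GLUL had a Pearson r of 0.82 and a Spearman rho of 0.73. That was the highest r of the 15 pairs of members, and it was 0.82 without day 21. ARG2 ran opposite to GLUL, with r of -0.58, and of -0.87 without day 21. The r of CPS1 with ARG2 was 0.76, and 0.74 without day 21, whereas that of CPS1 with ASL was 0.74, and 0.20 without day 21. These points share their libraries and follow each other in time, so the correlations are descriptions.

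The steps of the protocol were then compared, counting a gene where the larger value was at least 50. In the Activin A step, from day 0 to day 3, 0 of 6 members were at least 2-fold higher or lower, whereas 11.1% of 8934 genes were higher by that much and 9.07% lower. At 4-fold the count of members was also 0 in each direction, beside 3.94% of genes higher and 2.16% lower. The member changes in this step ran from -0.65 (CPS1) to 0.27 (ASL), with a median of -0.21 against -0.06 over all genes, and none was beyond the spread between days 9 and 11. All 6 genes had values above 0 in hESCs and in the definitive endoderm stage, but so did most genes. Of the 12125 genes, 271 were at 0 on day 0 and 216 on day 3.

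From day 3 to day 7, under FGF4 and BMP2, 1 of 6 members, GLUL, was at least 4-fold higher (log2 change 2.17), where 5.63% of 9100 genes were. No member was at least 4-fold lower, against 4.41% of genes. At 2-fold, ASS1 (1.63), GLUD1 (1.24) and GLUL were higher, 3 of 6 members against 13.2% of genes, and ARG2 was lower, 1 of 6 against 12.8%. ASL (-0.90) was lower by less than 2-fold but by more than the spread between days 9 and 11, and CPS1 (-0.29) was within that spread.

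From day 7 to day 13, an interval that holds the HGF and KGF libraries and ends with the library labelled OSM, 0 of the 5 members with a large enough value were at least 4-fold higher, where 3.08% of 8892 genes were, and 0 were at least 4-fold lower, where 2.46% were. At 2-fold, ASL (1.44) and GLUD1 (1.12) were higher, against 9.65% of genes, and ASS1 (-1.73) was lower, against 8.21%. On day 9, the first library in HGF and KGF, GLUD1 was at 3.21 times its day 7 value, above its value of day 13, and ASS1 was lower than on day 7 by a ratio of 3.09.

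From day 13 to day 21, 1 of 6 members, CPS1, was at least 4-fold higher, against the 2.28% of genes above, and none was at least 4-fold lower, where 1.62% of genes were. At 2-fold, CPS1, ARG2 (1.99) and ASS1 (1.06) were higher, 3 of 6 members against 8.57% of genes, and GLUD1 (-1.14) was lower, 1 of 6 against 9.08%. ASL (0.74) and GLUL (-0.96) fell short of 2-fold, and all 6 changes were beyond the spread between days 9 and 11, the smallest. At their levels, ASL, GLUL and GLUD1 were within the spread between days 1 and 2 (0.97, 2.00 and 1.25). ASS1 was within that between days 5 and 7 (1.51), and CPS1 and ARG2 were beyond both. In these single libraries, CPS1, ASS1 and ASL of the cycle itself had higher values at day 21 than at day 13. So did ARG2, which is not the liver arginase. GLUD1 and GLUL had lower values.

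Between the ends of the course, day 0 and day 21, 6 of 6 members had the higher value at day 21. Their median log2 change was 1.36, against -0.11 over the 9698 genes tested. Only CPS1 was at least 4-fold higher (3.33), 1 of 6 members against 11.9% of genes, and none was at least 4-fold lower, where 11.5% of genes were. At 2-fold, ASL (1.54), GLUL (1.46) and GLUD1 (1.27) joined CPS1, 4 of 6 members against 23.9% of genes, and 0 were lower, against 26.5%. ASS1 (0.42) and ARG2 (0.56) were within the spread between days 9 and 11. A rise of at least the size of that of CPS1 was found for 5.85% of genes over this longer interval. When each library was scaled by its median of ratios, changes between the ends of the course went up by 0.19 at the median of all genes. ASS1 was then at 0.60 and ARG2 at 0.75, both beyond the spread of 0.60 between days 9 and 11, ASS1 only just.

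Most of the genes listed for proteins that work beside the cycle had lower RNA values at day 21 than at day 0. Of 13 listed partners, 9 were found, and NAGS, CA5A, SLC25A12 and SLC25A2 have no row. From day 0 to day 21, 0 of the 7 partners tested were at least 4-fold higher and 1 was lower. These counts were near the 11.9% and 11.5% over all genes. At 2-fold, 5 were lower, against 26.5%, and the median change over the 9 was -1.07. The 5 were SLC25A13, MDH2 (-1.43), MDH1 (-1.19), FH (-1.09) and GOT2 (-1.07). SLC25A13, the mitochondrial carrier that exports aspartate for ASS1, was at 227 on day 0, 470 on day 2, 136 on day 13 and 44 on day 21 (log2 change -2.34). SLC25A15, the carrier of ornithine and citrulline, lay between 32 and 54 throughout. CA5B, a mitochondrial carbonic anhydrase, was at 18 on day 0, 47 on day 3, 18 on day 13 and 48 on day 21, too low to be counted.

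Among 9 enzymes of glutamine and glutamate found of 12 listed, 0 were at least 4-fold higher at day 21 than at day 0, against 11.9% of all genes, and 4 were lower, against 11.5%. GLS2, the glutaminase of adult liver, was at 82 on day 0, 2 on day 7 and 12 on day 21. ASNS, asparagine synthetase, went from 527 to 69 between days 0 and 21. CAD, which makes the carbamoyl phosphate of pyrimidine synthesis in the cytosol, went from 696 to 144, a log2 change of -2.27 where that of CPS1 was 3.33, and PPAT of purine synthesis from 252 to 39.

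The enzymes that use ornithine, arginine and proline, 18 found of 19 listed, were split, with 3 of the 14 tested at least 4-fold higher at day 21 than at day 0 and 3 lower, against 11.9% and 11.5% of all genes. ODC1, which takes ornithine into polyamines, was at 194 on day 0, 2641 on day 7, 6499 on days 9, 11 and 13, and 2434 on day 21, a course whose r with GLUD1 was 0.93. GATM, which takes arginine into creatine, was at 44 on day 0, 261 on day 3, 30 on day 5, 51 on day 13 and 392 on day 21. PRODH, proline dehydrogenase, was at 133 on day 3, 612 on day 5, 272 on day 7, 66 on day 13 and 347 on day 21. It was highest on day 5 as ASS1 was (r 0.84), and its day 21 value was the next highest.

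Of the enzymes that break down amino acids, 16 were found of 25 listed, and 3 of the 9 tested were at least 4-fold higher at day 7 than at day 3 and 0 lower, against 5.63% and 4.41% of all genes. They included TDO2, which opens the ring of tryptophan (3 to 93), and GLDC of glycine cleavage (81 to 684). Between days 0 and 21, 1 of 10 tested was at least 4-fold higher (HAAO, 6 to 72) and 3 were lower, against 11.9% and 11.5% of all genes. AASS, the first enzyme of lysine breakdown, was at 4866 on day 0 and 531 on day 1, and at 148 on day 21. DPYS, an enzyme of pyrimidine breakdown, was at 20 on day 7, between 94 and 113 on days 9 to 13, and at 6 on day 21.

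**Figure D2:**
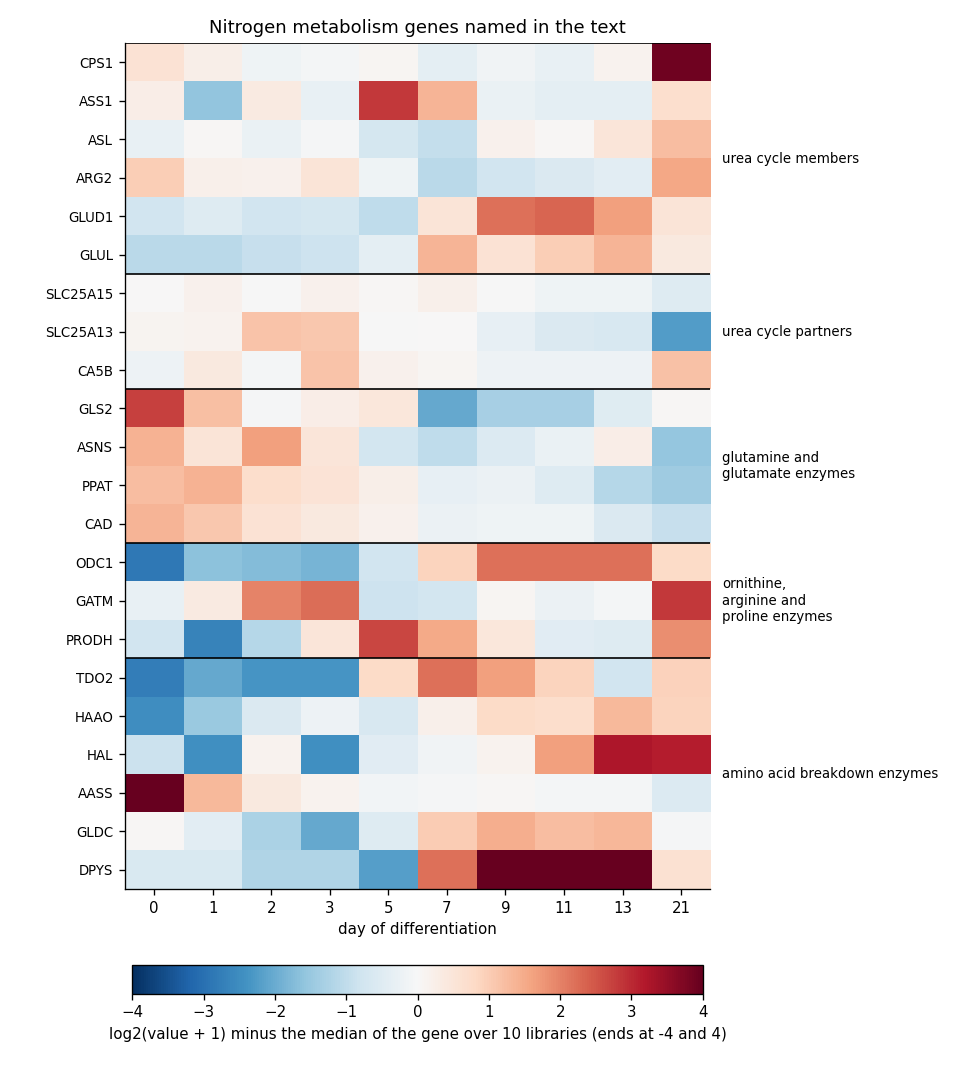
Heat map of log2(value + 1), less the median of the gene over the 10 libraries, for the members and for some genes of 4 nitrogen lists that the text names (rows) by day (columns). CPS1 is far above its median on day 21 alone, ASS1 and PRODH on day 5, and GLUD1, ODC1 and DPYS have their high values on days 9 to 13.

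Carriers of amino acids and ammonia, 16 found of 21 listed and all tested, had 6 genes at least 4-fold higher at day 21 than at day 0 and 3 lower, where 11.9% and 11.5% of all genes were. SLC7A7, part of the exchanger of basic amino acids, was at 24 on day 0, 488 on day 5 and 1555 on day 21. SLC7A2, an arginine carrier of liver, was at 10 on day 3, 768 on day 13 and 576 on day 21, and RHBG, an ammonia channel, was at 4 on day 0, 84 on day 7 and 92 on day 21. SLC7A1, the widely expressed arginine carrier, was at 415 on day 0 and 98 on day 21. Of 11 liver transcription factors found of 16 listed, 7 of the 9 tested were at least 4-fold higher at day 21 than at day 0 and 0 were lower, beside the same shares of all genes. HNF4A was at 0 on day 0, 1044 on day 7, 838 on day 13 and 470 on day 21. CEBPA, a regulator of urea cycle genes, was at 67 on day 7, 266 on day 13 and 160 on day 21, so that both were lower at day 21, when CPS1 was highest. NR3C1, the glucocorticoid receptor, was at 49 on day 13 and 179 on day 21, and PPARA at 102 and 248.

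Genes that mark the zones of the liver lobule were set beside GLUL and CPS1. Of the genes of the zone around the central vein, 8 of 11 were found, and they did not share a course. TBX3 was at 42 on day 3, 768 on day 7, 91 on day 13 and 63 on day 21. LGR5 was at 198 on day 3, 12 on day 7 and listed at 0 on days 13 and 21, and AXIN2 was at 128 on day 3, 16 on day 7 and 21 on day 21. RHBG lay between 84 and 98 from day 7 on. Of the other genes found, OAT (550) and RGN (126) were highest on day 21, NR1I3 on day 13 (56) and LEF1 on day 9 (40). On days 7 and 13, with GLUL at 2798 on both, TBX3 was thus at different values (log2 change -3.06). LGR5, AXIN2 and LEF1 were too low on both days to be counted. Of the 5 genes of this zone tested between these days, TBX3 was the only 1 at least 4-fold lower, against 2.46% of all genes. By that much, 0 were higher, against 3.08%. NR1I3 (1.44) was at least 2-fold higher, against 9.65% of all genes. RHBG (0.16), OAT (-0.33) and RGN (0.74) changed by less than 2-fold. Of the genes of the portal zone, 4 of 9 were found. CDH1, which is not particular to liver, was at 384 on day 7, 407 on day 13 and 1089 on day 21, while HAL, which starts histidine breakdown, was at 4, 51 and 47, and SLC7A2 and GLS2 are given above.

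Markers of other cell types also moved from day 13 to day 21. The summed value of 3 macrophage genes found of 9 listed lay between 13 and 74 on days 5 to 13 and was 525 on day 21, with CD68 at 259, LYZ at 201 and PTPRC, at 0 from day 3 to day 13, at 65. The sum of 3 intestinal genes found of 8 listed, markers of a tissue that also expresses CPS1, lay between 224 and 366 on days 5 to 13 and was 632 on day 21, with VIL1 at 134 on day 13 and 374 on day 21, SI at 35 and 96, and CDX2 lower, at 197 and 162. The sum of 8 red blood cell genes found of 10 listed was 5741 on day 13 and 2800 on day 21. The sum of 11 stromal genes was 39491 and 42127, and that of 4 endothelial genes found of 5 listed was 1902 and 1202. The sum of the 12 hepatocyte genes was 60794 on day 13 and 103315 on day 21, with TTR and AFP at the maximum of the scale on both days. On day 5, when ASS1 was highest, the hepatocyte sum was 3786, the intestinal sum 224 and the stromal sum 1548. That stromal sum was the lowest of the course, but its genes did not all go down. From day 0 to day 5, THY1 went from 2164 to 20 and COL1A2 from 390 to 305. All other stromal genes had the higher value on day 5. On day 7, the first day with GLUL at 2798, the hepatocyte, intestinal and stromal sums were 40359, 360 and 5376. On days 9 and 11, with GLUD1 highest, the stromal sum was 19238 and 21639. The part of these cells in the values of CPS1, ARG2, ASS1, GLUD1 and GLUL was not tested.

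**Figure D3:**
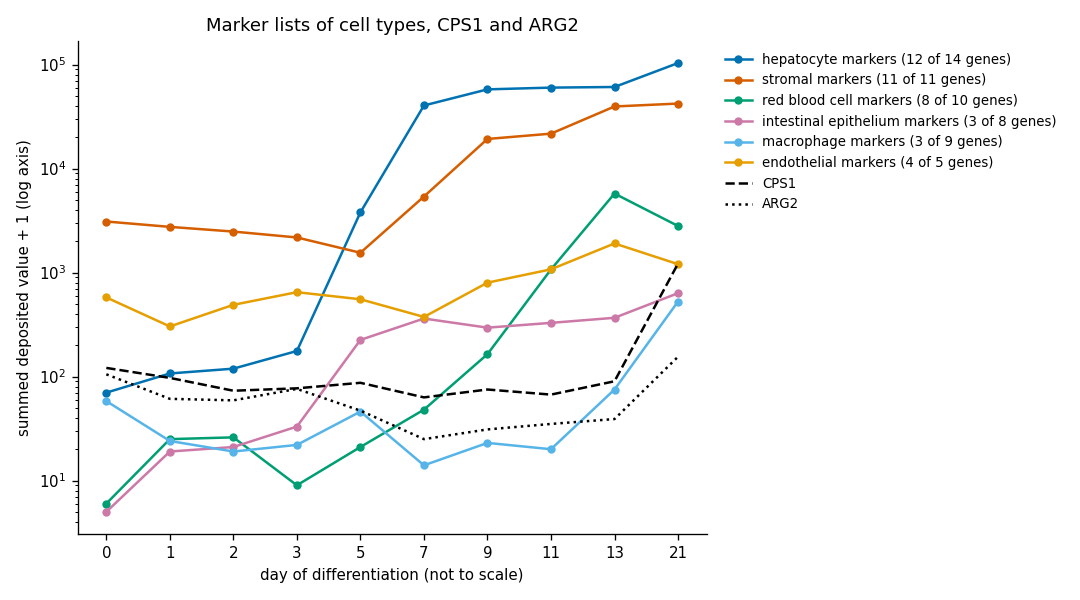
Summed deposited value plus 1 (log axis) of marker genes of 6 cell types by day, with the values of CPS1 (dashed) and ARG2 (dotted). The macrophage sum moves from 74 to 525 and the intestinal sum from 366 to 632 between days 13 and 21, when CPS1 moves from 89 to 1217.

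The genes whose course was most like that of each member were named by the Pearson r of log2(value + 1) over the 10 libraries, among 10746 genes with a highest value of at least 50. For CPS1 they were RNASET2 (r 0.98), ERO1L (0.96) and INSIG2 (0.96), which were all highest at day 21. RNASET2 went from 43 on day 13 to 213 on day 21, ERO1L from 100 to 620 and INSIG2 from 39 to 184. Without day 21 these r values were 0.71, 0.74 and 0.50. For ASS1 they were CDH12 (0.93), APLP1 (0.91) and ADM (0.90). CDH12 and APLP1 peaked on day 5, at 122 and 234, and ADM was at 684 on day 5 and 724 on day 7.

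For ASL they were RXRB (0.94), KSR1 (0.93) and SLC39A6 (0.93), and for ARG2 IMPDH1 (0.95), FGF11 (0.95) and DLG4 (0.94). The genes nearest to ASL were highest on day 21, as ASL was, whereas IMPDH1 and DLG4 had 102 each on day 21 with 102 and 99 on day 0. For GLUD1 they were AVPR1A (0.98), MFN2 (0.98) and DPYS (0.97), and for GLUL TOB1 (0.97), C5orf24 (0.97) and AKR1D1 (0.97), a liver enzyme of bile acid synthesis that was listed at 0 up to day 3 and at 186 on day 7. An r above 0.9 was shared by 284 genes with GLUL, 138 with GLUD1, 22 with CPS1, 19 with ARG2, 12 with ASL and 2 with ASS1, so a high r is common for the courses of GLUL and GLUD1 and rare for that of ASS1.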

How the data were processed

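Total RNA of H1 cells was sequenced on 10 days, with 1 library for each day. The values the authors deposited are scores: whole numbers from Bowtie2 2.2.0 and RSEM 1.2.17, GC-normalized with EDASeq, for 12125 genes. The methods name an Ensembl transcriptome with the mouse build mm10, and the processing notes list mm10 and hg19. All libraries hold nearly the same set of values in another order of genes. The methods give only an average depth over the samples, so the depth and counting error of each library are unknown. Columns were matched to samples by day.

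Changes are differences of log2(value + 1). Genes were counted at 4-fold or 2-fold where either value reached 50, the same count over all genes being the background. Days were compared with no test, since each has 1 library, and successive days in one medium were not taken as replicates. Members and lists were chosen with earlier results of these data known. All members were named, with up to 6 genes of a pathway list at least 4-fold changed in a step or between days 0 and 21 and the 3 genes most like each member. SLC25A15, CA5B, the zone genes TBX3, LGR5, AXIN2 and CDH1, and the stromal genes THY1 and COL1A2 were picked with their values known. So were the pair of days that gives the spread and its classes of value. The other genes found of the zone around the central vein were also named. All partners at least 2-fold lower at day 21 than at day 0 were named too. Some genes of the lists are counted but not reported here. The alternatives were other pseudocounts, scalings, filters, folds and measures of likeness. Python 3.11.15, numpy 2.4.6, pandas 2.3.3 and matplotlib 3.10.9 were used, and the code was tested on simulated data.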

Additional observations from a re-analysis of the deposited data

How the results depend on the processing

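With 1 library for each day, no member has a replicate, and no library could be left out of a group. No paired analysis was possible because each group holds 1 sample. The 30 member changes moved by less than 1 SD of the difference between days 9 and 11 under pseudocounts of 0.1 and 5 and under both scalings, in 120 of 120 values, and 0 reversed. With the median of ratios, the changes of ASS1 and ARG2 from day 0 to day 21 passed the spread between days 9 and 11. At day 21 against day 13, 1 member was at least 4-fold higher, and 2 were with a pseudocount of 0.1, with libraries scaled by the median of ratios and with libraries scaled to the same total, ARG2 being the second. With a fold of at least 2 in place of 4, the count of members was 3 higher and 1 lower from day 3 to day 7, 2 higher and 1 lower from day 7 to day 13, 3 higher and 1 lower from day 13 to day 21, and 4 higher from day 0 to day 21. Of 79 pathway genes found, some of them too low to be counted, 14 were at least 4-fold lower at day 21 than at day 0. The share over all genes tested was 11.5%. At 2-fold, 24 were lower, against 26.5% of genes. At 4-fold 17 were higher, against 11.9%, and at 2-fold 25, against 23.9%. Of the 18 genes named as most like a member, 4 stayed among the nearest 3 with Spearman's rho and 2 without day 21, so these names depend on the measure and on that library. Because all libraries share the same levels, every change is one of place in that order. The cause of these shifts was not tested.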
